A study of Homo sapiens with 2 samples.

Results

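HOTAIR, a long noncoding RNA, and the 9 protein-coding genes of the HOXC cluster that hosts it (HOXC4, HOXC5, HOXC6, HOXC8, HOXC9, HOXC10, HOXC11, HOXC12 and HOXC13) were examined on 2 one-colour Agilent microarrays. Members were found by matching the RefSeq accession of each probe to its gene symbol. All 10 genes had a probe, out of 19061 genes with a named probe. Each gene was read by 1 probe, and the 10 probes took up 14 spots on each array.

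The study asked which transcripts differ in SBC-3 cells, an established human small-cell lung cancer (SCLC) line, when HOTAIR is targeted by RNA interference. One array carried RNA of SBC-3 cells transfected with #1 siHOTAIR, a small interfering RNA (siRNA) against HOTAIR, and the other carried RNA of SBC-3 cells transfected with siGFP, a control siRNA against green fluorescent protein. Both groups therefore came from 1 line and had both been transfected, and the time between transfection and RNA extraction was not given for the arrays in the sources used here. There was 1 array per condition, so no test between conditions was possible and no p-value is given; other siRNAs against HOTAIR used in the study were not on these arrays, and effects of depleting HOTAIR and other effects of the 1 siRNA cannot be told apart.

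HOTAIR is transcribed antisense to the HOXC genes, from a stretch between HOXC12 and HOXC11, and is known for binding the PRC2 histone methyltransferase complex and the LSD1-CoREST-REST demethylase complex. HOX genes encode homeodomain transcription factors. They lie in clusters whose gene order mirrors the order in which they are used along the body axis, so that HOXC4 acts toward the head end and HOXC13 toward the tail end, and HOTAIR was first described as a repressor of genes in the HOXD cluster on another chromosome.

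The strands of the siRNA, as the study gives them, are shown because they define the only difference in treatment between the arrays. Written 5′ to 3′, capitals mark the seed of the antisense strand, bases 2 to 8, which leads the pairing with target RNA. The strands were 21 bases long, with 19 of 19 core bases paired, a 2-base overhang on each, and 10 G or C bases in the paired core.
#1 siHOTAIR antisense: uCUCUCUGuacucccguucuu
#1 siHOTAIR sense: gaacgggaguacagagagauu

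In the RefSeq annotation of GRCh38.p14, the cluster ran over 117.2 kb of chromosome 12, from 53938831 (HOXC13) to 54056030 (HOXC4). HOTAIR occupied 53962312 to 53974954, starting 3355 bases beyond the end of HOXC12 and sharing 1829 bases with the span of HOXC11. HOXC4, HOXC5 and HOXC6 were given the same gene start, 54016888. The 250 bases before that start are shown because HOXC4, the coding gene with the largest difference between the arrays, and HOXC5, which was at background, share them. Capitals mark ATTGG, the reverse complement of the CCAAT box.
HOXC4 and HOXC5, chr12:54016638-54016887, plus strand, GRCh38.p14: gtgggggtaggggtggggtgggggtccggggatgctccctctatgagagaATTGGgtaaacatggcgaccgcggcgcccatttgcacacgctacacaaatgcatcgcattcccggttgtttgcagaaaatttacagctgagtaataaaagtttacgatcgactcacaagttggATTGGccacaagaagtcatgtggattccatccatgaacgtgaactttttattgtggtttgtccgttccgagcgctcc

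The CCAAT box was found 2 times in this window, at 200 and 77 bases before the start, and 32.0% of the 35116 promoter windows of RefSeq in the same table held at least 1 on either strand. The window had 14 CpG dinucleotides, against a median of 11 over all windows, and 50.8% of its bases were G or C. The letters TATAAA (in 10.7% of all windows), GGGCGG (42.6%) and TGATNNAT (6.47%), each searched on both strands, did not occur in it. These matches describe the sequence and are not evidence of binding.

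HOTAIR gave the lowest ratio of the 9 members above background. Its probe was matched to NR_003716, 1 of 17 RefSeq transcripts of the gene. The processed signal (the final intensity of the scanner software, after its background correction) was 108 in #1 siHOTAIR cells and 244 in siGFP cells. The scanner software gave these signals errors of 13.6 and 25.2. After each array was scaled to its 75th percentile of signal (650.3 and 629.9), the log2 ratio of #1 siHOTAIR over siGFP was -1.22, or 57.2% lower. With another background correction (normexp) it was -0.76, and with no correction -0.73, both less than 2-fold lower. The spot lay well above background on both arrays.

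The single HOTAIR spot, in row 266 of the array, left no repeat of its own. Probes printed in 10 spots were used in its place: their spots on 1 array had an SD between 0.05 (log2) for the brightest and 0.19 to 0.21 for the dimmest of 6 levels. From these, the SD of the HOTAIR ratio was 0.20, and from the scanner errors it was 0.24. Both cover error within an array only, not the spread between cultures. Against the background, 4.1% of the 24117 probes above background on at least 1 array were at least 2-fold lower in #1 siHOTAIR cells and 3.3% at least 2-fold higher. These were 989 and 795 probes. The balance turned with spike-in scaling, to 781 lower and 1025 higher. Only 187 were lower with normexp and 154 with uncorrected signal. Among the 3460 probes within 0.5 (log2) of the mean level of HOTAIR, 49 (1.42%) were as low or lower in ratio.

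**Figure D1:**
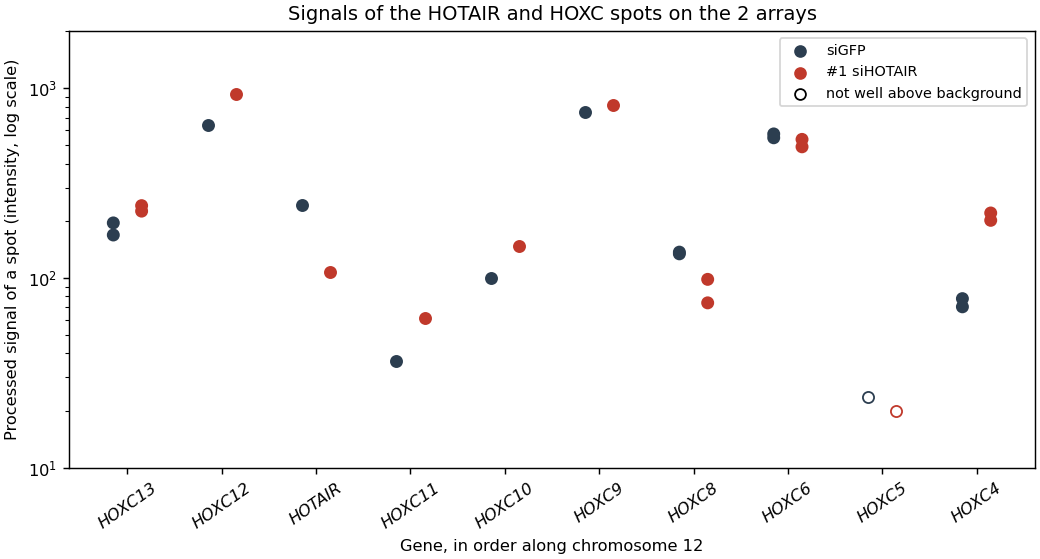
Processed signal (log axis) of every spot of HOTAIR and the HOXC genes, in siGFP cells (dark) and #1 siHOTAIR cells (red), genes in order along chromosome 12; open circles were not well above background. HOTAIR was at 244 against 108, and the HOXC4 spots were at 77.8 and 70.5 in siGFP cells and at 201 and 220 in #1 siHOTAIR cells.

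The array also held probes named only by intervals of long intergenic noncoding RNA (lincRNA) rather than by a gene, with coordinates of the hg19 build. As background, HOTAIR is annotated in hg19 in the region of chromosome 12 that holds the interval from 54356095 to 54362515. That stretch, the widest interval examined here, is 6421 bases long. The GRCh38.p14 span of HOTAIR is 12643 bases, so probes over the rest of the gene were not looked for. The 11 probes that overlap the stretch were picked after their values had been seen. No hg19 annotation was used to place them, so they are not counted as members. Each had 1 spot. In the probe names, 5 end in the letter R and 6 in F, which the files do not explain.

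The R probe of the whole 6421-base interval had a signal of 527 in #1 siHOTAIR cells against 1256 in siGFP cells, a log2 ratio of -1.30 with a repeat-spot SD of 0.11, or 59.4% lower. The interval from 54356229 to 54357908, 1680 bases long, had 2 R probes. The first was at 230 against 640, a log2 ratio of -1.53 (SD 0.13), or 65.3% lower, and the second at 291 against 626, a log2 ratio of -1.15 (SD 0.12), or 55.0% lower. These 3 spots, in rows 85, 290 and 185, were all at least 2-fold lower in #1 siHOTAIR cells, as was the HOTAIR probe. With normexp and uncorrected signal this was lost for the second of the 1680-base probes (-0.95 and -0.92) and for HOTAIR (-0.76 and -0.73), and held for the other 2 probes. Of all 3889 lincRNA-interval probes above background on at least 1 array, 4.63% were at least 2-fold lower.

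Probes from other parts of the stretch differed. The R probe of the 126-base interval from 54361053 to 54361178 had 93.0 against 95.5, a log2 ratio of -0.08 with an SD of 0.26, which turned to 0.05 when arrays were scaled to the spike-in RNA. The R probe of the interval from 54361178 to 54362460 was above background on neither array (21.7 against 35.2). Of the F probes, the one for the 102-base interval from 54360060 to 54360161 was bright on both arrays, at 1543 in #1 siHOTAIR cells and 1290 in siGFP cells, a log2 ratio of 0.21 (SD 0.09). The other 5 F probes were above background on neither array. The same interval of 6421 bases thus read 527 and 1256 with its R probe, and 29.9 and 25.5, at background, with its F probe.

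**Figure D2:**
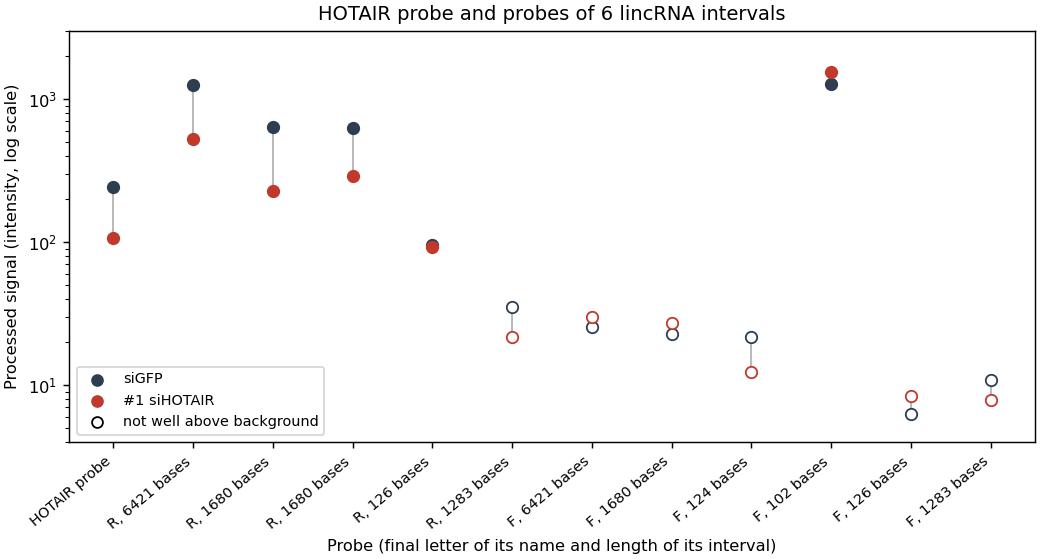
Processed signal (log axis) of the HOTAIR probe and of 11 probes named by lincRNA intervals in the same stretch, in siGFP cells (dark) and #1 siHOTAIR cells (red); open circles were not well above background. The HOTAIR probe and 3 R probes were at least 2-fold lower in #1 siHOTAIR cells, the R probe of 126 bases was at 93.0 against 95.5, and the F probe of 102 bases was at 1543 against 1290.

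Signal above background was seen on both arrays for 8 of the 9 coding HOXC genes. Only HOXC4 differed at least 2-fold, and it was higher in #1 siHOTAIR cells; with normexp or uncorrected signal 0 of the 8 did, HOXC4 then being at 0.95 and 0.87 (log2). Over 13014 genes above background on at least 1 array, 2.74% were at least 2-fold higher and 3.41% at least 2-fold lower, and over the 12026 genes above background on both arrays these shares were 1.4% and 1.48%. The log2 ratio was above 0 for 6 coding HOXC genes and below 0 for 2, with a median of 0.41 beside 0.02 over the 13014 genes. At a 1.5-fold threshold in either direction 3 of the 8 genes differed (HOXC4, HOXC8 and HOXC11), beside 16.8% of the 13014 genes, and at 3-fold 0 did, beside 2.57%. The 1.5-fold calls of HOXC8 and HOXC11 were lost with normexp and uncorrected signal, and that of HOXC8 also outside the first rows of the array (-0.52) and with spike-in scaling (-0.58), under which HOXC10 (0.66) and HOXC12 (0.65) passed. For HOXC6 and HOXC11 the log2 ratio was smaller than 2 of the SDs from the scanner errors (0.15 and 0.36), and for HOXC9 it was smaller than 1 SD by either error. A lower or higher signal in such bulk RNA can reflect the number of cells that express a gene or the RNA in each cell, and these cannot be told apart.

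HOXC4 is the most anterior gene of the cluster and is known from patterning of the neck and upper trunk. Its probe (NM_014620) had signals of 201 and 220 in its 2 spots in #1 siHOTAIR cells, and 77.8 and 70.5 in siGFP cells. The spots, in rows 93 and 180, gave log2 ratios of 1.33 and 1.60. The mean log2 ratio was 1.46, a 2.75-fold higher level, with a repeat-spot SD of 0.16 and a scanner SD of 0.17. Within an array, the spots of HOXC4 differed by 0.13 in #1 siHOTAIR cells and 0.14 in siGFP cells (log2). Of 3535 probes of like mean level, 0.962% were as far or farther in the same direction, the smallest share among the members.

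HOXC5, which starts at the same coordinate, was not well above background on either array. Its single spot read 19.8 in #1 siHOTAIR cells and 23.5 in siGFP cells, so no fold is given. HOXC6, used in the fore part of the trunk and known from motor neuron columns and the mammary gland, is the third gene with this start. Its 2 spots read 492 and 538 in #1 siHOTAIR cells against 575 and 549 in siGFP cells. Both spots were lower in #1 siHOTAIR cells, by log2 ratios of -0.27 and -0.07, with a mean of -0.17 (SD 0.08). As many as 25.4% of 2880 probes of like level were as low. With spike-in scaling the HOXC6 mean was -0.04, within its SD. The 3 genes that share a start thus gave a 2.75-fold higher level, a level at background and a log2 ratio of -0.17. Their probes were matched to 1 accession each, while HOXC4, HOXC5 and HOXC6 had 2 RefSeq transcripts each.

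HOXC8, a regulator of the thoracic skeleton and brachial motor neurons, was the lowest of the coding genes. Its 2 spots read 73.9 and 98.4 in #1 siHOTAIR cells and 134 and 137 in siGFP cells. The spot in row 73 gave a log2 ratio of -0.90 and that in row 153 gave -0.52, and the mean of -0.71 (SD 0.17) corresponds to 39.0% lower. With normexp and uncorrected signal the mean was -0.32 and -0.30. Of 3552 probes of like level, 6.64% were as low or lower. HOXC9, known for setting thoracic motor neuron identity, read 815 in #1 siHOTAIR cells against 747 in siGFP cells in 1 spot. Its log2 ratio was 0.08 with an SD of 0.10, so the difference was within the repeat-spot error. With spike-in scaling the ratio was 0.22, which is outside that error.

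The posterior genes were all higher in #1 siHOTAIR cells, each by less than 2-fold. HOXC10, which acts in hindlimb motor neurons, read 148 against 99.5 in 1 spot, a log2 ratio of 0.53 (SD 0.23). HOXC11, a posterior gene active in the hindlimb, read 61.5 against 36.4 in 1 spot, a log2 ratio of 0.71. Its SD of 0.28 was carried over from brighter probes and is a low estimate at this level. The siGFP signal of HOXC11 was close to that of the dimmest single spot marked well above background on that array, 28.6, and the gene span of HOXC11 overlaps HOTAIR. The spots of HOXC10 and HOXC11 were in rows 110 and 104. With normexp and uncorrected signal, HOXC10 was at log2 ratios of 0.30 and 0.25, and HOXC11 at 0.36 and 0.25.

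HOXC12, the nearest gene on the other side of HOTAIR, read 939 in #1 siHOTAIR cells against 638 in siGFP cells in 1 spot, in row 153. The log2 ratio was 0.51 with a repeat-spot SD of 0.10 and a scanner SD of 0.20. HOXC13, known for its role in hair and nail, closes the cluster. Its 2 spots read 225 and 241 in #1 siHOTAIR cells and 195 and 169 in siGFP cells, with log2 ratios of 0.16 and 0.47 and a mean of 0.31 (SD 0.11). Under the alternatives the HOXC13 mean ranged from 0.19 (uncorrected signal) to 0.45 (spike-in scaling). Shares of 8.05% to 20.9% of the probes of like level were as high as HOXC12, HOXC10, HOXC11 and HOXC13, and 45.2% as high as HOXC9, so ratios of this size were common on these arrays.

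**Figure D3:**
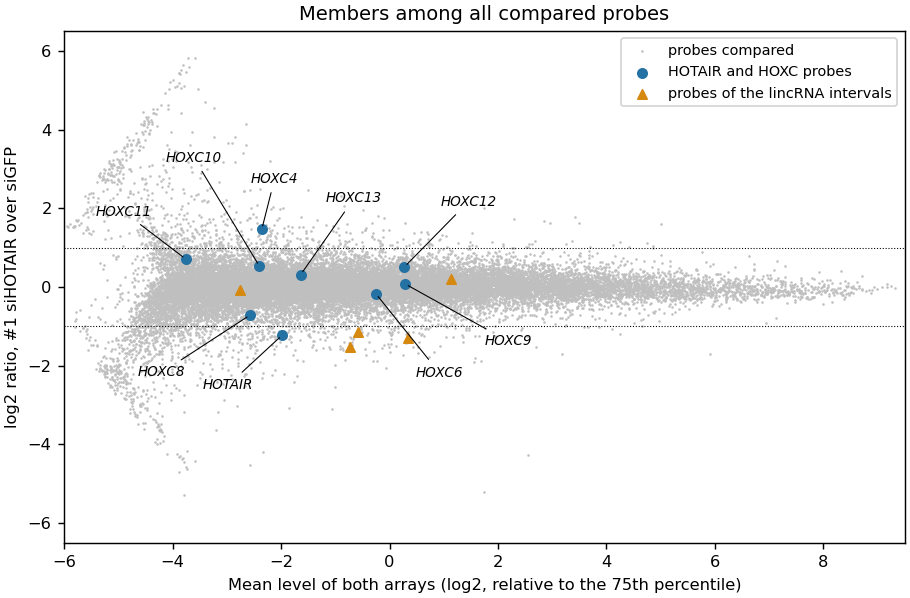
Log2 ratio of #1 siHOTAIR over siGFP against the mean log2 level of both arrays, for all 24117 compared probes (grey), the members above background (blue) and the lincRNA-interval probes above background on both arrays (triangles); dotted lines mark a 2-fold difference. HOXC4 lies above the upper line, and HOTAIR and 3 triangles lie below the lower line.

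Position along the chromosome was compared with ratio. HOXC12 and HOXC11, the genes on each side of HOTAIR, both had log2 ratios above 0 (0.51 and 0.71), while HOXC4, the farthest member from HOTAIR by midpoint, had the highest ratio. Outside the cluster, 45 genes of the RefSeq table lay within 500 kb, of which 23 had a named probe and 13 were above background on both arrays. None of the 13 differed at least 2-fold, and their median log2 ratio was -0.02. Over the 14 above background on at least 1 array the median was 0.05, and 0.19 with spike-in scaling. The highest was MAP3K12, a kinase known from the response of neurons to axon injury, with 162 in #1 siHOTAIR cells against 81.2 in siGFP cells over 2 spots, a log2 ratio of 0.95. Spike-in scaling, which raised all ratios by 0.14, took MAP3K12 past 2-fold. The lowest was CALCOCO1, a coiled-coil protein linked to selective autophagy, with 138 against 230 in 1 spot, a log2 ratio of -0.78. Inside the cluster, the RefSeq table listed 8 other noncoding genes, 2 of them miRNAs, and none had a probe named by it.

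**Figure D4:**
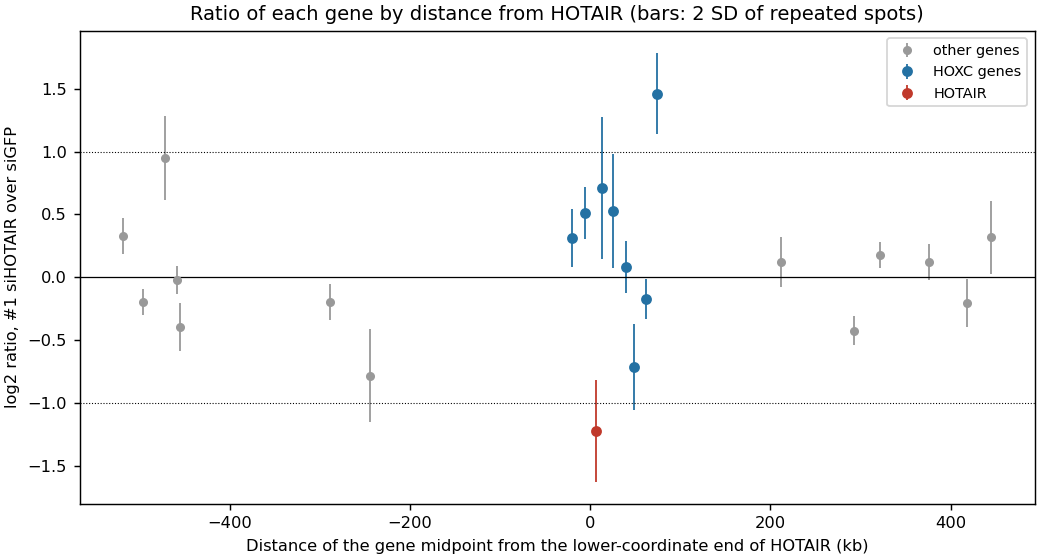
Log2 ratio of #1 siHOTAIR over siGFP against the distance in kb of each gene's midpoint from the lower-coordinate end of HOTAIR, for HOTAIR (red), the 8 HOXC genes (blue) and neighbouring genes (grey) above background on both arrays; bars are 2 repeat-spot SDs and dotted lines mark a 2-fold difference. HOTAIR at -1.22 and HOXC4 at 1.46 lie beyond the dotted lines, and every neighbour lies between them.

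Paralogs in the other HOX clusters, genes that arose from the same ancestral cluster, were read on the same arrays. The 23 taken were HOXA4 to HOXA13, HOXB4 to HOXB9 with HOXB13, and HOXD3, HOXD4 and HOXD8 to HOXD13. HOXD3 has no HOXC gene of its number, and the HOXA and HOXB genes of that number were not taken. Of the 23 paralogs, 15 were above background on both arrays and none of these differed at least 2-fold. Over the 19 above background on at least 1 array, 2 were at least 2-fold higher and 1 lower, with dim signals taken as read. Of the 8 genes taken from the HOXD cluster, where HOTAIR was first described as a repressor, 4 were above background on both arrays. Their median log2 ratio was -0.11, and with spike-in scaling the median over the 6 compared HOXD genes was 0.03. The highest was HOXD9, at 495 in #1 siHOTAIR cells against 398 in siGFP cells (log2 ratio 0.27, and 0.70 in a dimmer probe), and the lowest was HOXD3, at 205 against 359 (log2 ratio -0.86). HOXD8 was above background in #1 siHOTAIR cells only, at 95.8 against 16.4 in 1 spot. HOXD13 was above background in siGFP cells only, at 20.2 in #1 siHOTAIR cells against 33.6. No fold is given for genes above background on 1 array, since some spots that were not marked above background were brighter than others that were.

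In the HOXA cluster, 5 of 8 paralogs were above background on both arrays, from HOXA11, a gene of limb and kidney (-0.13), to HOXA10, a gene of the uterus and the blood lineage (0.46). Other probes of these genes differed: a dimmer HOXA10 probe gave 0.10 (889 against 803), and a dimmer probe of HOXA9, a gene of blood stem cells, gave 0.76 (482 against 276) where its brighter one gave 0.24. In the HOXB cluster, 6 of 7 were, from HOXB8 (-0.91, with 1058 in #1 siHOTAIR cells against 1929 in siGFP cells) to HOXB5 (0.72, with 3491 against 2046). HOXA13 was above background in #1 siHOTAIR cells only and HOXB7 in siGFP cells only. The median log2 ratio was 0.21 over the HOXA and 0.17 over the HOXB genes compared, beside 0.41 for HOXC. Under the alternatives these medians ranged from 0.11 (normexp) to 0.35 (spike-in scaling) for HOXA, from 0.22 (uncorrected signal) to 0.55 (spike-in scaling) for HOXC, and from 0.01 (spots outside the first rows) to 0.31 (spike-in scaling) for HOXB. Among genes above background on both arrays, a difference of at least 2-fold thus occurred in 1 of 8 coding HOXC genes and in 0 of 15 paralogs. Among genes above background on at least 1 array, the HOXC count was the same. Of the 19 paralogs there, 2 were at least 2-fold higher (HOXD8 and HOXA13) and 1 lower (HOXB7), with dim signals taken as read. These few genes allow no statement that the clusters differ.

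Genes of the complexes that HOTAIR is known to bind were read next. All 10 of 11 PRC2 and LSD1 complex genes with a named probe were above background on both arrays, none differed at least 2-fold, and their median log2 ratio was -0.10, or 0.04 with spike-in scaling. The highest was SUZ12, a core PRC2 subunit, with 4987 against 3413 over 10 spots and a log2 ratio of 0.50 (SD 0.02), close to that of HOXC12. The lowest was HDAC2, a histone deacetylase of the CoREST complex, with 5696 against 6708 over 10 spots and a log2 ratio of -0.28 (SD 0.02), while a dimmer probe of the same gene gave 0.54. ACTB, which encodes beta-actin, had log2 ratios of -0.05 and -0.02 in its 2 probes, and GAPDH, a glycolytic enzyme, had -0.00.

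By the pair of levels on the 2 arrays, the named genes most like HOTAIR were MTHFD2L, an enzyme of mitochondrial folate metabolism (112 in #1 siHOTAIR cells against 235 in siGFP cells), IDNK, a gluconate kinase (101 against 239), and IL23A, a cytokine subunit (107 against 224). Their distances from HOTAIR were 0.074, 0.097 and 0.12 (log2) over the 2 arrays. Likeness over 2 points describes these levels only.

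The labelled cell type was checked against marker genes. Among small-cell lung cancer markers, YAP1, which marks the non-neuroendocrine subtype, was at 6522 in #1 siHOTAIR cells and 6750 in siGFP cells, and NEUROD1, a neuroendocrine transcription factor, at 213 and 372. The neuroendocrine factor INSM1, the vesicle protein gene SYP and the tuft-cell factor POU2F3 were above background on neither array. CHGA, which encodes chromogranin A, and 1 of 3 probes of NCAM1, a neural adhesion molecule, were above background in #1 siHOTAIR cells only, with CHGA at 72.2 against 10.2.

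The epithelial keratin genes KRT8 (2825 against 2557) and KRT18 (431 against 565) were above background on both arrays, and EPCAM in siGFP cells only. A dimmer probe of each keratin gene was above background in siGFP cells only, at 31.5 against 54.0 for KRT8 and 16.2 against 36.1 for KRT18. Among markers of other cell types, COL1A1 was at 832 against 414 while the fibroblast genes DCN and LUM were at background. One of 4 probes of the leukocyte gene PTPRC was above background on both arrays (106 against 61.0) and CD3E on neither, and the endothelial gene CDH5 was at 121 on both arrays while PECAM1 was at background. COL1A1 had a log2 ratio of 0.96, which passed 2-fold with no scaling (1.01) and with spike-in scaling, and NEUROD1 had -0.85. The part of these markers, and of CHGA, in the HOXC values was not tested.

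The ratios of the members also moved with the processing of the signal. The log2 ratio of HOTAIR ranged from -1.25 to -0.73 over the 9 alternatives, of which 2 (outlier spots kept, first rows left out) used the same spot in the same way and could not change it. It was less than 2-fold lower in the 2 that changed the background correction, at -0.76 with normexp and -0.73 with no correction. HOXC4 ranged from 0.87 to 1.60 and passed below 2-fold under the same 2 settings. Scaling to the spike-in RNA moved the median of all genes by 0.14 and that of the coding HOXC genes to 0.55.

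Place on the array was checked in the same way. The first rows, a block of 37.5% of all spots, held 5 of the 14 member spots. Of spots above background on both arrays, 1.83% were at least 2-fold higher in #1 siHOTAIR cells in this block and 1.28% in the other rows, and 1.79% and 1.66% were at least 2-fold lower. The HOTAIR spot lay outside this block, as did all spots of HOXC6, HOXC12 and HOXC13. With spots of the other rows alone, HOXC4 was at 1.60 and HOXC8 at -0.52, and HOXC9, HOXC10 and HOXC11 had no spot.

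**Figure D5:**
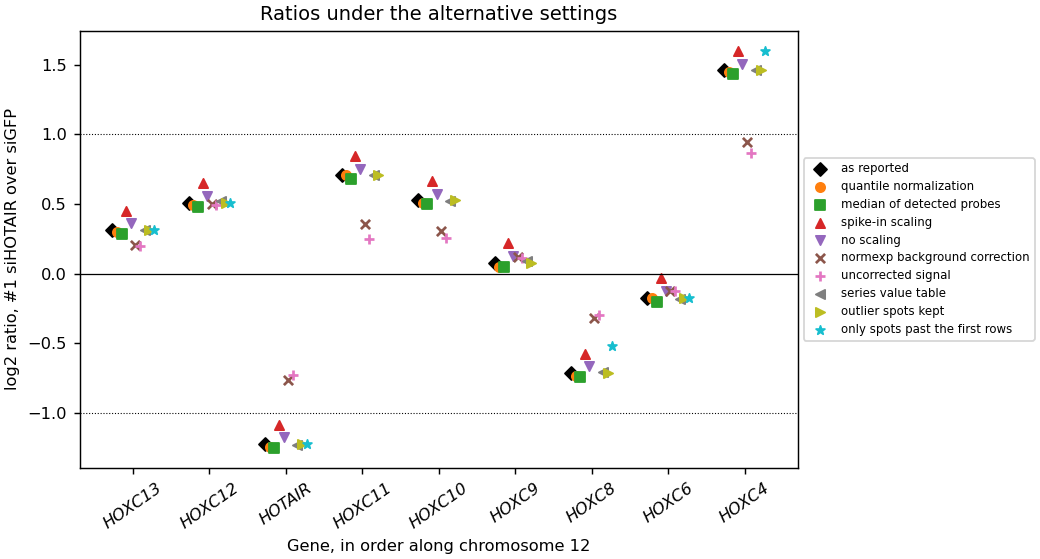
Log2 ratio of #1 siHOTAIR over siGFP for each member above background, as reported (black diamonds) and under 9 alternative settings, with dotted lines at a 2-fold difference. HOTAIR lies between -1.25 and -0.73 and HOXC4 between 0.87 and 1.60, and for both the normexp and uncorrected signals fall inside the dotted lines.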

How the data were processed

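Total RNA of SBC-3 cells was labelled with Cy3 and hybridised by the authors to Agilent human gene expression arrays, 1 per condition, which the file headers place on 1 slide in 1 scan. The deposited values are the intensity of each spot, background-subtracted by Agilent Feature Extraction 10.10.1.1; the series value table held the same numbers (largest difference 0). Of 62976 spots, 58717 were not controls. Outlier spots (393 on the #1 siHOTAIR array, 375 on the siGFP array) were left out, and none was saturated. The signal was log2-transformed, the 75th percentile of each array subtracted, and spots of a probe averaged. A probe counted as above background where the scanner software passed 50% or more of its spots; 52.1% and 55.3% of 42402 probes were, and the number of arrays, not a read depth, limits the precision. Accessions were matched to RefSeq symbols (58.5% of probes), and a gene took its probe of highest mean signal.

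Members, lists and rules were chosen with earlier results of these data known. Named were all members, ACTB and GAPDH, the highest and lowest gene of each list among genes above background on both arrays, and the 3 genes with 2 or more spots nearest to HOTAIR in level; cell type markers were also named, except 1 that is not reported here. HOXD8, HOXD13, HOXA9, HOXA13 and HOXB7 were named after their values were seen. Alternatives used quantile, detected-median, spike-in (8 probes, 246 spots) or no scaling, normexp in limma 3.58.1 (R 4.3.3) with offset 50, uncorrected signal, the value table with a floor of 10, outlier spots kept, and spots outside the first rows. For the coding genes, filters on dim probes, the median of a gene's probes, dim signals at their bound, and thresholds of 1.5-fold and 3-fold were also tried. Python 3.11.15 with pandas 2.3.3 was used. The gene ontology analysis and P threshold of the GeneSpring methods were not repeated.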

Additional observations from a re-analysis of the deposited data

How the results depend on the processing

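Background correction changed the sizes of the ratios. With normexp correction HOTAIR was at a log2 ratio of -0.76, 0 coding HOXC genes differed at least 2-fold and their median was 0.25. With uncorrected signal these were -0.73, 0 and 0.22. Over all probes, 227 were then at least 2-fold higher and 187 lower with normexp, and 173 and 154 uncorrected, against 795 and 989 as reported. With spike-in scaling the balance turned, with 1025 higher and 781 lower. With spots outside the first rows alone these counts were 358 and 549, from fewer spots. At a 1.5-fold threshold 3 coding HOXC genes differed (HOXC4, HOXC8 and HOXC11), beside 16.8% of the 13014 genes. At 3-fold 0 did, beside 2.57%. Of the values of single coding HOXC genes under these settings, 13 moved by more than their repeat-spot error (8 with a change of background correction), and 0 changed direction. No member spot was an outlier, so keeping outlier spots could not change a member. The cause of these shifts was not tested. Dim signals were also a limit. The dimmest single spot marked well above background had a signal of 37.3 in #1 siHOTAIR cells and 28.6 in siGFP cells. HOXC11, at 36.4 in siGFP cells, lay near the second value. HOTAIR, HOXC9, HOXC10, HOXC11 and HOXC12 were read from 1 spot on each array, and with 1 array per condition the spread between cultures is unknown.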
